A study of Mus musculus with 6 samples.

Results

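The 6 nuclear genes of mitochondrial proteins examined, *Ndufa5*, *Ndufb6*, *Ndufa4*, *Ndufaf4*, *Chchd7* and *Stoml2*, were compared between the mouse lung squamous carcinoma lines UN-SCC679 and UN-SCC680. They were 6 of the 55359 rows of a table of gene counts, found by Ensembl identifier and kept because they lie on the parts of chromosome 4 (starts below 58.6 Mb) and chromosome 6 (starts below 29.5 Mb) where the table's positions are those of the GRCm38 genome. Both lines were derived from lung tumors of A/J mice whose skin was painted with the carcinogen NTCU. They were passaged in culture, then injected into immunodeficient Rag2-/- IL2Rg-/- mice and afterwards into A/J mice. The study took its final working lines from the A/J model, and no treatment is labelled for the libraries. Polyadenylated RNA was sequenced in 3 libraries per line, with no normal tissue among the samples, so that every difference below is UN-SCC680 against UN-SCC679. Each line is a single derivation, so what separates the tumors of origin and what arose later in culture or in mice cannot be told apart. The sources do not say whether the 3 libraries of a line came from separate cultures, so p-values cover the spread between libraries alone.

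Complex I is the NADH dehydrogenase that feeds electrons into the respiratory chain of the inner mitochondrial membrane and pumps protons. It is L-shaped, with a matrix arm that oxidizes NADH and a membrane arm that moves protons, and it is built from subunits encoded in the nucleus and in the mitochondrial genome with the help of assembly factors that are not part of the finished enzyme. *Ndufa5* encodes a subunit of the matrix arm, *Ndufb6* a subunit of the membrane arm, and *Ndufaf4* an assembly factor. *Ndufa4* is named after complex I, with which its product was purified at first, but the protein is now counted as a subunit of cytochrome c oxidase, complex IV. CHCHD7 is a small protein with paired cysteine motifs of the kind imported into the intermembrane space, and STOML2 is a stomatin family protein that scaffolds the inner membrane together with cardiolipin.

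Most of the table could not be read gene by gene. Among rows matched by symbol to GRCm38 genes, both ends lay over 1000 bases from that gene's ends in 99.0% on the nuclear chromosomes other than 4 and 6, against 5.05% and 1.55% on the chromosome 4 and 6 segments kept here. Rows that any cell should fill were empty at displaced positions, with 0 counts in all for *Rplp0* and 6 for *Actb*. Each library held 3568293 to 4381885 counts, of which the mitochondrial genome took 18.0% to 18.9% and the 2 segments 12.4% to 14.3%. None of the 7 squamous markers, 3 leukocyte markers and 2 endothelial markers looked for lay on rows whose positions agree, so the labelled cell type could not be checked. Of 5 fibroblast markers, only *Col1a2* could be read, at 26677 to 29001 normalized CPM (counts scaled to a common library total) in the UN-SCC679 libraries and 2194 to 2374 in the others. Its part in the results below was not tested, and fewer cells of a type and less RNA per cell cannot be told apart in such samples.

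The 6 genes differed in the similar places found elsewhere in the genome and in overlap with other rows, which may bear on the counts. The search took 1 coding transcript per gene and single alignments, so copies split into shorter pieces could be missed. That transcript was 2546 bases for *Chchd7* and 492 for *Ndufa4*, against 4060 and 1381 bases of exon in their rows. The coding transcripts of *Ndufb6* and *Chchd7* matched no other place in the mouse genome at 85% identity over at least 40% of their length. *Ndufa4* matched 3 other places (highest identity 92.1%, longest match 100% of the transcript's length). *Ndufaf4* matched 2 (87.1%), and *Ndufa5* and *Stoml2* matched 1 each (86.3% and 94.2%). What reads shared with such places do to these counts was not tested. Exons of *Ndufb6* overlapped those of *Smim27*, on the opposite strand, over 257 bases, 39.0% of their length. The *Smim27* row held 300 counts over the 6 libraries and the *Ndufb6* row 4355, and whether the counting used strand is not stated. *Smim27* itself was at 5.83 ± 1.12 (SD) normalized CPM in the UN-SCC679 libraries and 18.1 ± 2.11 in those of UN-SCC680. What the overlap does to the *Ndufb6* difference was not tested.

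Sequence upstream of the annotated start is shown for 2 genes that were higher in UN-SCC680, *Ndufb6* and *Ndufa4*, and for *Ndufaf4*, whose levels lay close together in the lines. The bases are RefSeq's for GRCm38.p6, written 5′ to 3′ on the gene's strand and trimmed of any exon in the table. They are chr4:40279422-40279671 (minus strand) for *Ndufb6*, chr6:11907497-11907700 (minus strand) for *Ndufa4* and chr4:24897833-24898082 (plus strand) for *Ndufaf4*. Capitals mark matches on either strand to the letters GCGCATGC (part of the NRF-1 motif), CCGGAAG (GABP), AAGGTCA (estrogen-related receptors) or AAGATGGC (YY1), motifs of factors known for regulating mitochondrial genes.
*Ndufb6*: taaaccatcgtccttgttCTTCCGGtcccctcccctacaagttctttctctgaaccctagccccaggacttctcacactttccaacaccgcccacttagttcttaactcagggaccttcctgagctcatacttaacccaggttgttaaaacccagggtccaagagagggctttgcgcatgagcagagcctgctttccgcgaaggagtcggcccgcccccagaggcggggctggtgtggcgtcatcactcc
*Ndufa4*: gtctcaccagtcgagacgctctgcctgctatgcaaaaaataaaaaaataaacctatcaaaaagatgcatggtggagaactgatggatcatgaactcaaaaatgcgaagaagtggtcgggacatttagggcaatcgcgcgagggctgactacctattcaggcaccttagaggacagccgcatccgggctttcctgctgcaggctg
*Ndufaf4*: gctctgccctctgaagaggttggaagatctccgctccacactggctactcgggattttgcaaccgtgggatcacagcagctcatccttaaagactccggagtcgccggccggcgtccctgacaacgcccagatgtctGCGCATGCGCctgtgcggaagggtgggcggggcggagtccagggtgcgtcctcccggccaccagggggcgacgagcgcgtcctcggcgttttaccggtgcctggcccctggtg

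These letters were chosen after the sequences had been seen. The windows searched ran from 250 bases before to 50 after the start, and 5 of the 6 genes had one. *Ndufaf4* held the NRF-1 letters at 3 starting positions, while 2.71% of all 32851 such windows in the mouse genome held them. The upstream pair overlap in a palindrome and make up the run of capitals, and the other begins 1 base after the start. The GABP letters stood at 1 place each in *Ndufb6* and *Stoml2*, against 8.86% of all windows. *Ndufa4* and *Ndufa5* held none of the letters searched, and the other motifs, found in 4.72% (AAGGTCA) and 2.75% (AAGATGGC) of all windows, were in none of the 5 genes. A match describes the letters of the window and was not tested as a site.

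Of the 6 genes, 3 were higher in UN-SCC680 past an adjusted p of 5e-05 (edgeR's quasi-likelihood test across 8987 rows with Benjamini-Hochberg adjustment), namely *Ndufb6*, *Ndufa4* and *Stoml2*, each by 1.27-fold to 1.33-fold. The test called 0 lower, also by DESeq2 and by limma-voom, although *Ndufa5* was lower at an unadjusted p under 0.05, the only gene of the 6 to be so. Across all rows tested, 30.4% differed, with 15.3% of the rows higher in UN-SCC680 and 15.2% lower. Most of these rows lie outside the segments at displaced positions, so the shares are of rows and not of readable genes. The main scaling of the libraries rests on the same rows. Among the 343 tested rows of the 2 segments, 38.5% were higher and 15.5% lower, so 3 of 6 is to be read against the share in these segments. The median log2 fold change was 0.26 for the 6 genes, 0.23 for the 343 rows and -0.0028 for all rows. None of the 3 calls held when libraries were scaled within the rows of the segments alone. That scaling pooled both segments. Of the 343 tested rows, 254 are on chromosome 4, with a median of 0.29, and 89 on chromosome 6, with a median of -0.017. Scaling within each segment by itself was not tested.

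Of the complex I subunits, *Ndufb6* rose in UN-SCC680, and *Ndufa5* was lower in every library without passing the threshold. *Ndufb6* (ENSMUSG00000071014.11, chromosome 4, 40270591 to 40279421) was at 131, 166 and 156 normalized CPM in the UN-SCC679 libraries and at 198, 210 and 198 in those of UN-SCC680. The ranges did not overlap, and replicate 1 of UN-SCC679 lay below the other libraries of its line. Its log2 fold change came to 0.42 ± 0.060 (standard error) with an adjusted p of 8.90e-08 by edgeR, and to 0.32 without that library. *Ndufa5* (ENSMUSG00000023089.13, chromosome 6, 24518665 to 24528012) was at 283, 276 and 266 normalized CPM in the UN-SCC679 libraries, against 229, 243 and 242 in UN-SCC680. Here all the UN-SCC680 libraries lay below the UN-SCC679 libraries. The log2 fold change of -0.21 (standard error 0.046) missed the threshold (adjusted p = 0.000156 from edgeR) and passed it when libraries were scaled by their size alone (adjusted p = 2.53e-05 from edgeR). Scaled within the segments, it was at -0.45 and also passed (adjusted p = 4.70e-10 from edgeR). Ranges that do not overlap are common in these data, at 62.2% of all rows tested and 265 of 343 in the segments. They were found for 5 of the 6 genes.

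*Ndufa4* (ENSMUSG00000029632.8, chromosome 6, 11900291 to 11907496), the complex IV gene, was the most abundant of the 6. Its libraries stood at 1378, 1249 and 1267 normalized CPM in UN-SCC679, against 1679, 1689 and 1662 in UN-SCC680. The UN-SCC680 libraries were all higher and close to each other, with a coefficient of variation of 0.816% against 5.38% in UN-SCC679, where replicate 1 was highest. This was a log2 fold change of 0.37 ± 0.033 (standard error), with an adjusted p of 1.93e-13 by edgeR.

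*Ndufaf4* (ENSMUSG00000028261.14, chromosome 4, 24898083 to 24905001), the assembly factor, had the smallest difference when all rows set the scaling, but not when libraries were scaled within the segments, where it was called lower at -0.27 on the log2 scale. Its libraries stood at 270, 271 and 266 normalized CPM in UN-SCC679, against 262, 260 and 264 in UN-SCC680. These ranges lay just apart, but the UN-SCC680 level was 0.974 of that in UN-SCC679, with an interval of 2 standard errors from 0.916 to 1.04 (adjusted p = 0.484 from edgeR). The spread between its libraries, with a coefficient of variation of 0.869% and 0.799%, was the lowest of the 6 in UN-SCC680 and second to *Stoml2* in UN-SCC679. At 952 to 1190 counts per library, sampling noise alone would usually spread values more than this. With 3 libraries the ranking therefore does not show a steadier gene.

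*Stoml2* (ENSMUSG00000028455.16, chromosome 4, 43027690 to 43031710) was at 386, 389 and 391 normalized CPM in the UN-SCC679 libraries, against 498, 505 and 483 in UN-SCC680. The lines were well apart, by 0.35 ± 0.039 (standard error) on the log2 scale, with an adjusted p of 1.52e-10 by edgeR. *Chchd7* (ENSMUSG00000042198.13, chromosome 4, 3938888 to 3951046) was the least abundant, at 51.7, 46.2 and 58.4 normalized CPM in the UN-SCC679 libraries, against 51.2, 64.3 and 58.8 in UN-SCC680. Its libraries overlapped between the lines. The level in UN-SCC680 was 1.12 times that in UN-SCC679, with an interval of 2 standard errors from 0.988 to 1.28 (adjusted p = 0.118 from edgeR), and it turned to a log2 fold change of -0.069 when libraries were scaled within the segments. At 192 to 278 counts per library this was the widest interval of the 6, and it holds the 1.27-fold change of *Stoml2* but not the 1.29-fold change of *Ndufa4*.

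**Figure D1:**
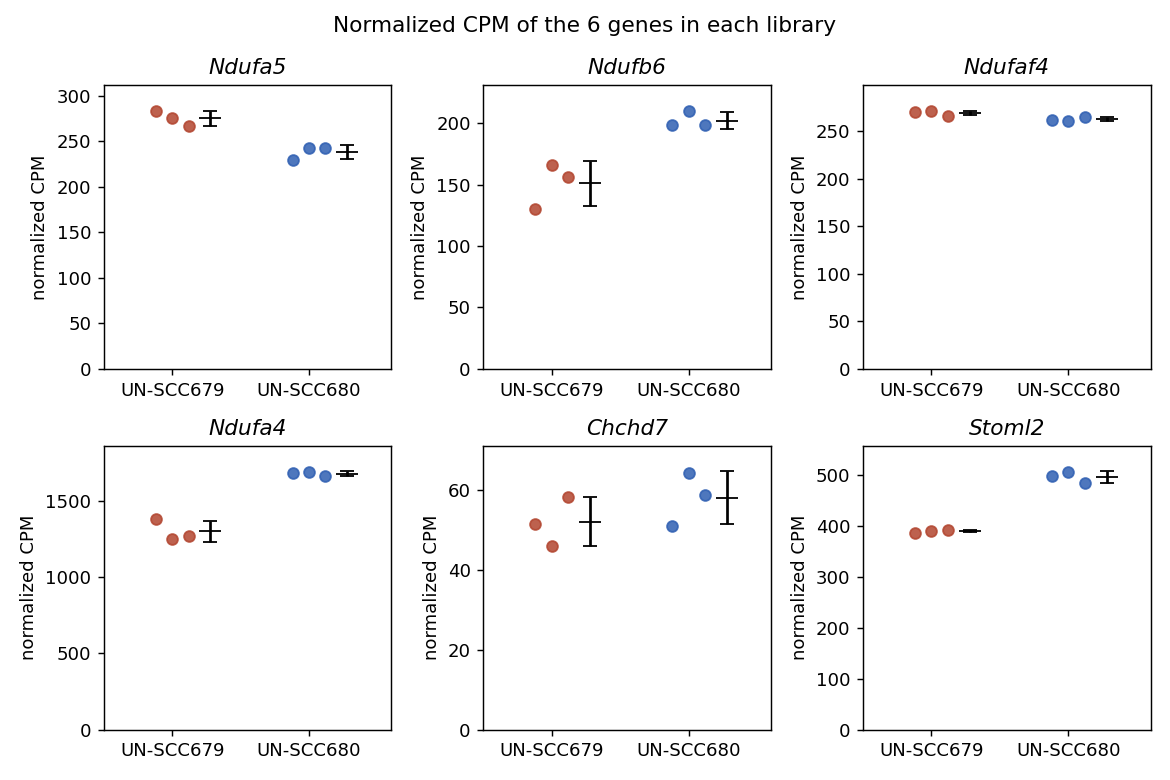
Normalized CPM (vertical axes, from 0) of the 6 genes in the 3 libraries of UN-SCC679 and of UN-SCC680, with a point per library and a bar for the mean and SD. *Ndufb6*, *Ndufa4* and *Stoml2* are higher in all UN-SCC680 libraries, *Ndufa5* is lower in all of them, the *Ndufaf4* points lie between 260 and 271, and those of *Chchd7* overlap.

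Levels of different genes were compared per kilobase of exon length in the table, as normalized CPM per kilobase. In UN-SCC679 the order was *Ndufa4* (940 ± 50.6, SD, n = 3), *Ndufa5* (267 ± 8.19), *Ndufb6* (229 ± 27.98), *Stoml2* (129 ± 0.730), *Ndufaf4* (68.9 ± 0.599) and *Chchd7* (12.8 ± 1.52). In UN-SCC680 *Ndufb6* (307 ± 10.5) stood above *Ndufa5* (231 ± 7.64), and the other places were the same. Neighbours in either order did not overlap over the 3 libraries. The lengths count all exons of a row, 659 bases for *Ndufb6* and 4060 for *Chchd7*, and they are the same in both lines. The *Ndufb6* length includes the 257 bases shared with *Smim27*, and its place in the order was not tested without them.

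Ratios of counts within a library need no scaling between libraries, and these were picked after the values were seen and are given without a test. There were 0.461, 0.603 and 0.587 *Ndufb6* counts for each *Ndufa5* count in the UN-SCC679 libraries, and 0.866, 0.865 and 0.819 in those of UN-SCC680. The ratio was higher in every UN-SCC680 library, by 0.64 on the log2 scale. The ratio of *Ndufa4* to *Ndufa5* went from 4.72 ± 0.173 to 7.05 ± 0.251 between UN-SCC679 and UN-SCC680 (mean and SD of 3 libraries), and that of *Stoml2* to *Ndufaf4* stood at 1.45 ± 0.0188 and 1.89 ± 0.0565. By contrast, the ratio of *Ndufa4* to *Ndufb6* overlapped between the lines, at 7.52 to 10.6 and 8.04 to 8.47.

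**Figure D2:**
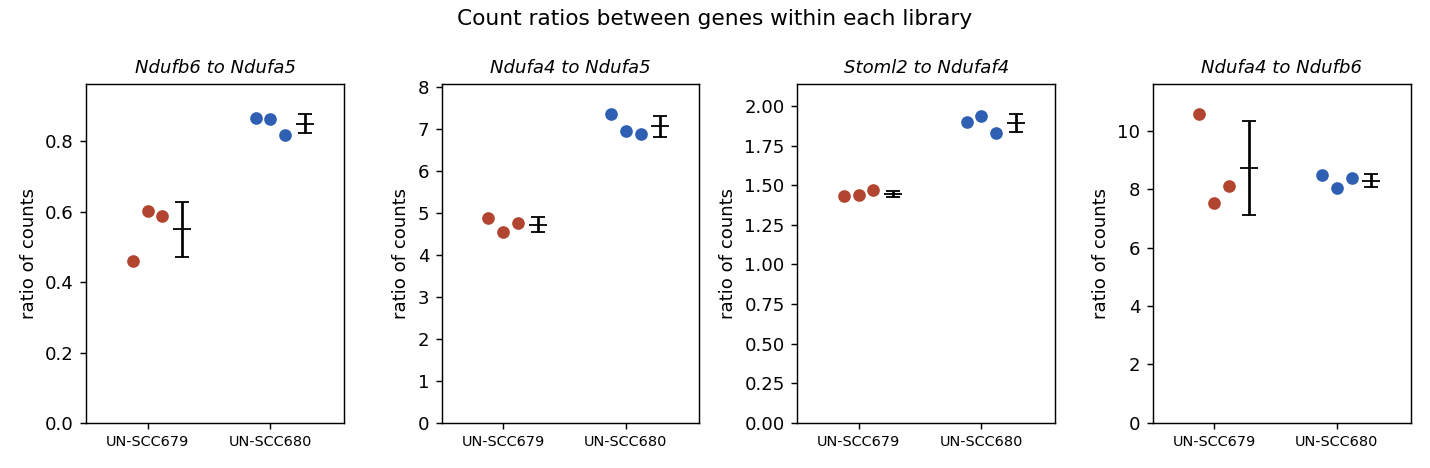
Ratio of raw counts between 2 genes in each library (vertical axes, from 0), with a point per library and a bar for the mean and SD of the 3 libraries of a line. The ratios of *Ndufb6* and *Ndufa4* to *Ndufa5* and of *Stoml2* to *Ndufaf4* are higher in all UN-SCC680 libraries, and that of *Ndufa4* to *Ndufb6* overlaps, at 7.52 to 10.6 and 8.04 to 8.47.

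Apart from *Ndufaf6*, the remaining complex I genes could be read only in the mitochondrial genome. Of 52 other nuclear genes of complex I subunits and assembly factors, 51 were found by symbol and only *Ndufaf6*, an assembly factor on chromosome 4, had a position that agrees. Its level was 37.95 ± 3.76 (SD, n = 3) normalized CPM in UN-SCC679, against 46.5 ± 3.38 (SD, n = 3) in UN-SCC680, and it was not called (adjusted p = 0.00929 from edgeR). The mitochondrial genome encodes 7 complex I subunits, all of the membrane arm. Of these, *mt-Nd1*, *mt-Nd2* and *mt-Nd4* were lower in UN-SCC680 and 0 were higher by edgeR, with *mt-Nd5* alone higher at an unadjusted p under 0.05. DESeq2 called 0 higher and 2 lower, and limma-voom called 1 higher and 3 lower. The count lower was also 2 without UN-SCC679 replicate 2, without UN-SCC680 replicate 1 and without UN-SCC680 replicate 2. The median log2 fold change was -0.14. *mt-Nd1* was at 14901, 14607 and 15103 normalized CPM in the UN-SCC679 libraries, against 11742, 11979 and 12458 in UN-SCC680. Its log2 fold change, and that of *mt-Nd2*, was -0.30, with adjusted p of 1.95e-14 and 9.76e-14 by edgeR. These 3 transcripts had the opposite sign to *Ndufb6*, as did *mt-Nd3* (-0.15) and *mt-Nd4l* (-0.14), which were not called. *mt-Nd5* (0.084) and *mt-Nd6* (0.054) had the same sign as *Ndufb6* and were not called. The rows of *mt-Nd4l* (9877 to 10173) and *mt-Nd4* (10167 to 11544) overlap, as do those of *mt-Nd5* (11742 to 13565) and *mt-Nd6* (13552 to 14070). The signs are therefore not independent of each other, and what shared reads do to these counts was not tested. *Ndufa5*, the other nuclear subunit examined, was negative (-0.21), like *mt-Nd1*.

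Of 17 other nuclear genes of mitochondrial proteins on the 2 segments, 15 passed the filter on low counts. Of these, 10 were higher and 3 lower in UN-SCC680, and *Hint2* and *Ndufaf6* (also in the complex I list above) were not called. Only 5 were higher when libraries were scaled within the segments, and 8 with DESeq2. *Aass* held 0 counts and *Aldh1b1* 2 in all, and they were not tested. The median log2 fold change of the 15 was 0.37, also with genes at or under 3 counts set to that floor, against 0.23 for all tested rows of the segments. The list was written with earlier results of these data known, so nothing is called particular to it. The changes of *Mrpl50*, of the mitochondrial ribosome (log2 fold change 0.37), *Rars2*, the mitochondrial arginyl-tRNA synthetase (0.34), and *Tomm5*, of the outer membrane translocase (0.33), were close in size to those of *Ndufa4* and *Stoml2*. Larger increases were seen for *Coq3*, of coenzyme Q synthesis (0.73), *Sdhaf3*, of complex II assembly (0.63), *Lyrm2*, a LYR motif protein (0.83), *Nipsnap3b* (0.82), and *Pdp1*, the phosphatase that activates pyruvate dehydrogenase (0.84). *Slc25a51*, the mitochondrial NAD carrier, rose least (0.21) and *Grhpr*, a glyoxylate reductase, most (1.38). The genes that fell were of another order of size. *Pdk4*, the kinase that inactivates pyruvate dehydrogenase, held 1605 to 1973 counts per UN-SCC679 library and 0 to 1 in UN-SCC680. *Slc25a13*, the aspartate-glutamate carrier, held 1082 to 1294 and 2 to 3, and *Decr1*, of fatty acid oxidation, held 412 to 518 and 0.

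**Figure D3:**
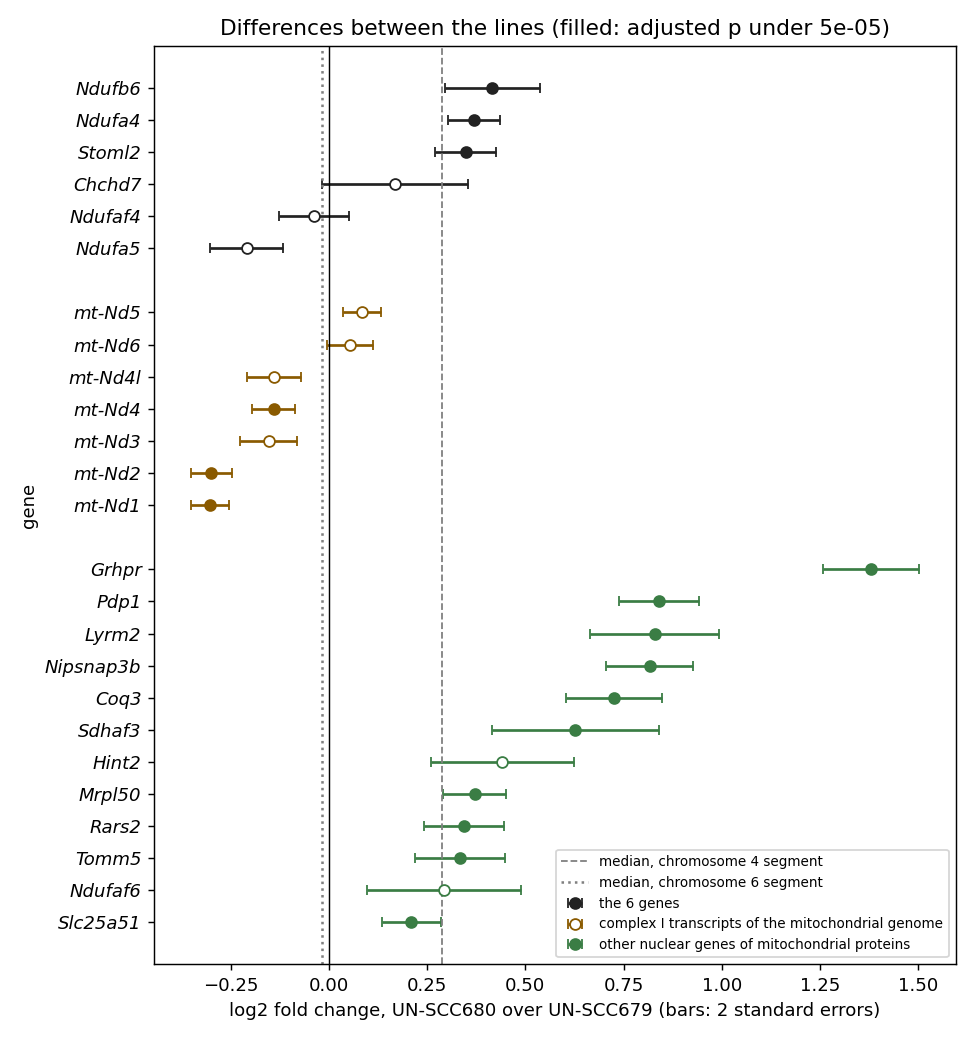
Log2 fold change of UN-SCC680 over UN-SCC679 (horizontal axis, bars of 2 standard errors) for the 6 genes (black), the 7 complex I transcripts of the mitochondrial genome (brown) and 12 of the 15 tested genes of other mitochondrial proteins (green, *Decr1*, *Pdk4* and *Slc25a13* left out at or under 3 counts in UN-SCC680), filled where the adjusted p from edgeR was under 5e-05. *Ndufb6* and *Stoml2* lie right of the median of their chromosome 4 segment at 0.29 (dashed), *Ndufa4* at 0.37 and *Ndufa5* at -0.21 lie on either side of that of their chromosome 6 segment at -0.017 (dotted), and the mitochondrial transcripts lie from -0.30 to 0.084.

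More tested rows were called higher than lower in UN-SCC680 on the chromosome 4 segment, but not on that of chromosome 6. The median log2 fold change was 0.29 over 254 tested rows on the chromosome 4 segment, of which 109 were higher in UN-SCC680 and 29 lower, and -0.017 over 89 rows on the chromosome 6 segment, with 23 higher and 24 lower. *Ndufa4* and *Ndufa5*, both on chromosome 6, lay on either side of their segment's median, and whether they stand apart from the segment was not tested. Counting signed values, 25.0% of the other rows on the segment had a log2 fold change above that of *Ndufa4*, and 62.5% had one above that of *Ndufa5*, less negative or positive. On chromosome 4, the share with a signed value above the gene's own was 36.8% for *Ndufb6*, 43.5% for *Stoml2*, 60.9% for *Chchd7* and 73.1% for *Ndufaf4*.

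Within 1 Mb, *Ndufa4* had 2 tested neighbours. *Phf14*, whose row begins just past the end of the *Ndufa4* row, also rose in UN-SCC680, by 0.49 on the log2 scale (adjusted p = 4.50e-14 from edgeR), and *Gm6578* had 1.18 to 4.19 normalized CPM and was not called. *Ndufa5* lay among rows of much larger decreases, *Cadps2* (11.3 to 16.2 normalized CPM in UN-SCC679 and 0 in every UN-SCC680 library) and *Asb15* (2.52 to 2.96 and 0 to 0.472), and beside *Wasl*, which was not called (log2 fold change 0.13, adjusted p = 0.00338 from edgeR). These 5 genes were chosen by their place. Around *Ndufb6*, 10 of 19 tested rows were higher and 3 lower, with a median of 0.31, and around *Stoml2* 9 of 27 were higher and 1 lower, with a median of 0.44. *Chchd7* had 8 tested neighbours with a median of 0.27, and *Ndufaf4* had 6 with a median of -0.24. Among the latter, *Mms22l* (0.49) and *Ufl1* (0.34) were higher. The negative values were those of *Klhl32*, *Gpr63*, *Gm11893* and *Gm11895*, at 3.81 to 22.5 normalized CPM, and 0 were called lower.

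Profiles over the 6 libraries were compared by the Euclidean distance of centred log2 CPM with each of the 342 other tested rows of the segments. The nearest to *Stoml2* was *Slc35a1*, at a distance of 0.033 and with a log2 fold change of 0.36, and the nearest to *Ndufa4* was *Aptx* (0.058, log2 fold change 0.35). *Ndufaf4* was nearest to *Wwp1* (0.051, -0.026) and *Ndufa5* to *Tmem106b* (0.091, -0.27). *Ndufb6* and *Chchd7* had more distant nearest rows, *Gm12508* (0.175) and *Gm11805* (0.154). With 6 libraries of 2 lines, such a distance takes in the difference between the lines as well as the spread within each.

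The size of each difference depended on the rows used to scale the libraries. Scaling by RLE, upper quartile or library size kept all of them close, with a shift of the median over all rows of -0.029 or less in size. Scaling within the rows of the 2 segments lowered all of them, by a median of 0.24. It pooled the segments, so *Ndufa4* and *Ndufa5* of chromosome 6 were scaled largely on chromosome 4 rows. On that scale *Ndufb6* was at 0.18, *Ndufa4* at 0.13 and *Stoml2* at 0.11, none past the threshold, *Chchd7* turned to -0.069, and *Ndufa5* at -0.45 and *Ndufaf4* at -0.27 passed it as lower in UN-SCC680 (adjusted p = 4.70e-10 and 8.92e-07 from edgeR).

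**Figure D4:**
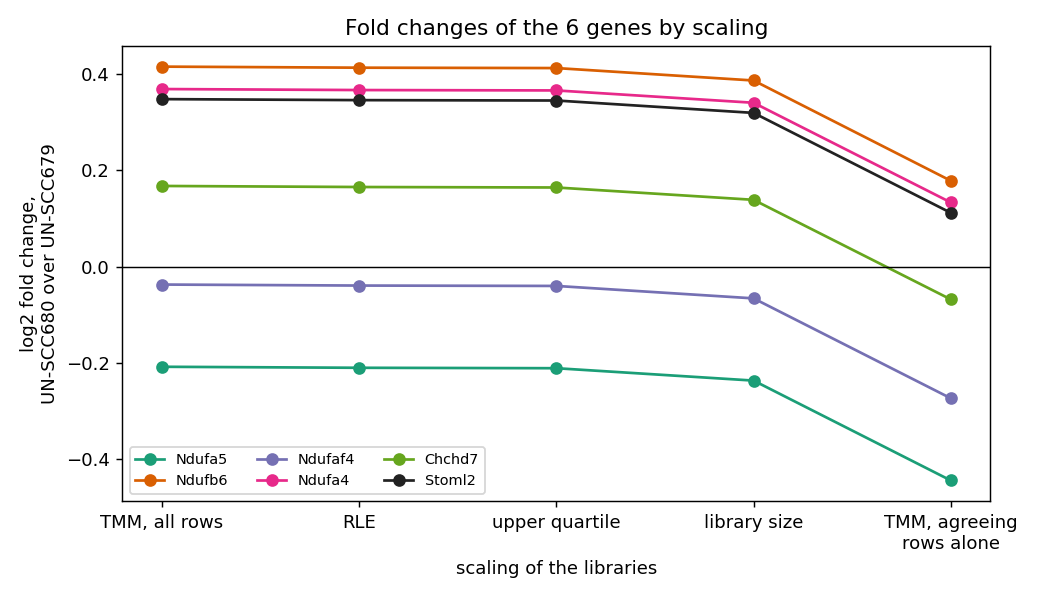
Log2 fold change of UN-SCC680 over UN-SCC679 (vertical axis) of the 6 genes under 5 scalings of the libraries (horizontal axis), with lines joining the values of a gene. Values are nearly level over the first 4 scalings and lower by about 0.24 when only rows of the 2 segments are used, where *Chchd7* turns from 0.17 to -0.069.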

How the data were processed

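Raw counts per Ensembl gene, whole numbers without normalization, were deposited by the authors with exon positions and gene length. The labels name TruSeq stranded mRNA libraries, featureCounts and mm10, while the study's methods name Trimmomatic, pseudoalignment with Kallisto and DESeq2. Columns were matched to libraries by line and replicate number. Symbols were taken from the gene name table and RefSeq synonyms, and positions were compared with RefSeq genes of GRCm38.p6.

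All rows passing filterByExpr (8987 of 55359) were tested together with edgeR's quasi-likelihood test (TMM, no covariates), with Benjamini-Hochberg adjustment and the study's threshold of 5e-05. Standard errors came from the F statistic. Normalized CPM used effective library sizes, and log2 CPM a prior count of 2. The test was checked on simulated data. Alternatives were DESeq2, limma-voom, other scalings, filters and thresholds, a replicate block and each library left out. Libraries of a line differed by more than sampling noise (chi-square per degree of freedom 1.11 to 1.63), and each counted as 1 sample. Similar transcripts were sought with blastn (megablast) in NCBIM37.

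The 6 genes and the lists were chosen with earlier results of these data known. Named were all 6, the genes of the lists, tested neighbours where they were few, and the nearest profile of each gene. The versions were edgeR 4.0.16, DESeq2 1.42.0 and limma 3.58.1 under R 4.3.3, and NumPy 2.4.6, pandas 2.3.3, SciPy 1.17.1 and matplotlib 3.10.9 under Python 3.11.15.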

Additional observations from a re-analysis of the deposited data

How the results depend on the processing

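Of 96 values of the 6 genes under the alternatives, 89 had the direction and the side of the threshold reported. Scaling within the 2 segments gave 6 of the other 7, with *Ndufb6* at 0.1786, *Ndufa4* at 0.1334, *Stoml2* at 0.1118, *Ndufa5* at -0.4458, *Ndufaf4* at -0.2746 and *Chchd7* at -0.0686, so that 0 of the 6 genes were higher and 2 lower in UN-SCC680. It centres on pooled rows with a positive median, 0.29 on the chromosome 4 segment but -0.017 on that of chromosome 6, where *Ndufa4* and *Ndufa5* lie. It also left 8 of the other mitochondrial genes past the threshold, 5 of them higher. Library size scaling brought *Ndufa5* to -0.2377, past the threshold as the 1 lower gene, and called 5 mitochondrial complex I transcripts, all 5 lower. An adjusted p under 0.05 called 6 of these transcripts and *Ndufaf6*, 1 of the nuclear complex I list. It also called 4 of the 6 genes, with *Ndufa5* added as lower, and 15 of the 15 tested other mitochondrial genes, *Ndufaf6* again among them. At that threshold 5248 of all 8987 tested rows passed, and 259 of the 343 in the segments. A log2 fold change over 1 in size left 0 of the 6 genes, 0 of the mitochondrial transcripts and 4 of the other mitochondrial genes. With no low-count filter, and with limma-voom, 1 mitochondrial transcript was higher. A minimum of 10 counts in every library removed the 3 near-empty genes, leaving 0 lower. The causes were not tested beyond these constructions. With the replicate block, 3 of the 6 genes passed, with *Ndufb6* at 0.42, and no call on them changed. Same-numbered libraries did not deviate together (correlations -0.038, -0.00052 and -0.022). With each library left out in turn, 3 genes passed in every fit, and *Chchd7* ranged from 0.079 to 0.26.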
